A study of Arabidopsis thaliana with 18 samples.

Results

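Across 18 microarrays of Arabidopsis thaliana, 82 of the 22746 probe sets other than controls met a rule for a steady rise. The rise ran over 3 successive groups of arrays, with salicylic acid (SA) and without it. All groups share the accession Tsu-1, and total RNA was labelled with biotin for the Affymetrix ATH1 array. SA was given to 9 samples at 0.30 mM together with the surfactant silwet at 0.02%, and 9 samples received the surfactant alone. Array numbers from the titles serve as names, 100 to 108 for SA and 91 to 99 for silwet. Each run of 3 consecutive numbers holds replicate numbers 1, 2 and 3 and is called a triplet here. The first, the second and the third triplet were arrays 100 to 102, 103 to 105 and 106 to 108 for SA, and 91 to 93, 94 to 96 and 97 to 99 for silwet. No tissue, age or time is labelled, nor what sets the triplets apart or whether plants were pooled. Separate plants are not stated either, so p-values show array-to-array spread, which may be technical.

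Members were chosen on the medians of log2 signal in each triplet. The third median had to exceed the first by at least 1 log2 unit, a doubling, in SA and in silwet, and the third median had to be at least 6, a signal of 64, in both. The second median could not lie outside the first and the third by more than 0.2, and the first medians of the treatments had to lie within 0.7 of each other. The rule therefore used the values of all 18 arrays, and the rise of a member in either treatment is a description and carries no test. A rise of at least 1 in both treatments was met by 465 probe sets, of which 147 reached 6 in the third triplet of both. Of these, 114 had a second median within bounds, and 82 also met the limit on the first medians. The same rule turned round, with first medians of at least 6, gave 180 probe sets with a steady decline. At the edge of the rule, the smaller of the 2 rises was 1.0 for AT1G67910, 250109_at and 255671_at inside it, and 0.999, 0.996 and 0.993 for 264161_at, 267474_at and 251846_at outside it.

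As background, SA is a hormone through which plants defend themselves against biotrophic pathogens. Plant defensins such as PDF1.2 are small secreted antimicrobial peptides whose genes answer to jasmonate and ethylene, and SA is known to antagonise that response in Arabidopsis. Of the 82 members, 47 had 1 gene in the platform annotation, and the other 35 are given by probe set where they appear. They are described by what single genes are known to do.

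The arrays were of similar brightness, with median signals of 26.01 to 35.9 and a trimmed mean of 100.01 on every array. SA array 100, with a mean correlation of 0.852 to the rest, and silwet array 97, with 0.88, stood apart most, and the members were shifted on both. SA array 100 was the highest of its triplet for 63 of the 82 members, by a median of 0.79 over the mean of the other 2, against 0.06 over all tested probe sets. Silwet array 97 was the highest of its triplet for 63 members, by a median of 0.54, against -0.03 over all tested probe sets. RNA integrity was read from control probe sets at both ends of actin and GAPDH. The log2 3'/5' ratio averaged 2.51, 2.04 and 1.75 in the SA triplets and 2.48, 1.77 and 2.22 in the silwet triplets, with SDs of 0.20 to 0.81 (n = 3 each) for actin. For GAPDH it averaged 0.03, 0.17 and 0.09 in the SA triplets and -0.07, -0.18 and 0.26 in the silwet triplets. SA array 100 had 3.19 for actin and 0.86 for GAPDH, and silwet array 97 had 2.38 and 0.55, each the highest GAPDH ratio of its treatment. The part of RNA integrity in the members' values was not tested. Tissue could not be checked against a label. The antenna genes LHCB4.1 and LHCB4.2 had first-triplet medians of 11.8 and 10.5 in SA and 11.8 and 10.7 in silwet. Of the 6 root markers 3 had a named probe set. PYK10, a beta-glucosidase of roots, declined as the members climbed, with medians of 8.26, 7.73 and 6.96 in SA and 8.21, 7.31 and 6.86 in silwet. EXPA7 and EXPA18, expansins of root hairs, were among the dimmest probe sets and not tested, with medians of 1.12 to 3.52. The part of root RNA in the members' rise was not tested. No flower or seed marker of the lists had a named probe set here. In bulk samples such as these, fewer cells of a type and less RNA per cell cannot be told apart.

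The mean log2 signal of the 82 members was higher at each triplet under both treatments. In SA it was 6.92, 6.31 and 5.97 in the first triplet, 7.43, 7.38 and 7.28 in the second, and 7.70, 7.73 and 7.76 in the third, by replicate number. In silwet it was 6.70, 6.71 and 6.36 in the first triplet, 7.21, 7.29 and 7.28 in the second, and 8.29, 7.60 and 7.94 in the third. The lowest third-triplet array, silwet 98, thus lay above every second-triplet array, and the lowest second-triplet array lay above every first-triplet array. This order follows in part from the rule, which chose the members on the same arrays. The arrays of the second and the third triplet of SA kept close together, while those of the first triplet of SA and the third of silwet were spread more widely, with SDs of 0.48 and 0.35 against 0.03 to 0.20 in the other 4 triplets (n = 3 each).

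**Figure D1:**
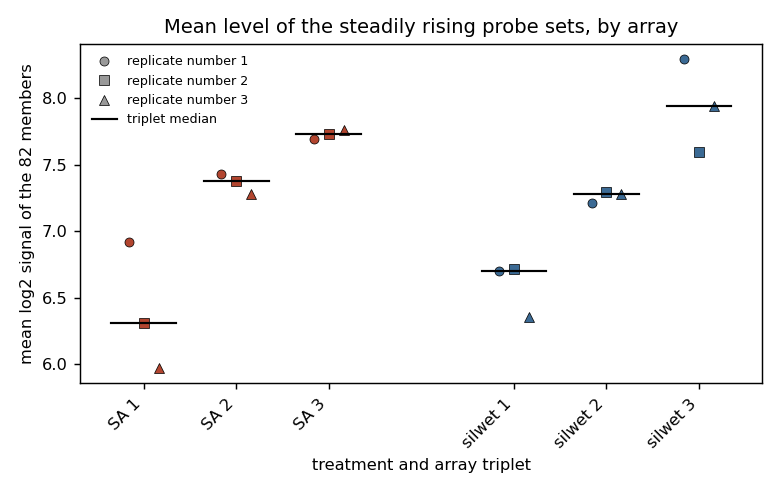
Mean log2 signal of the 82 members (vertical axis) on each of the 18 arrays, by treatment and array triplet, with SA in red and silwet in blue. Each symbol is an array, its shape gives the replicate number, and bars are triplet medians. The 3 levels do not overlap, with first-triplet arrays up to 6.92, second-triplet arrays from 7.21 to 7.43 and third-triplet arrays from 7.60. The rule chose the members on these arrays, so the order follows from it in part.

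The median rise was 1.31 log2 units in SA (2.48-fold) and 1.26 in silwet (2.40-fold), against medians of 0.15 and 0.00 over all 15922 tested probe sets. The rise stayed under 1.5 for 59 members in SA and 60 in silwet, and reached 2 for 4 members in SA and 6 in silwet. Every third-triplet array lay above every first-triplet array for 63 members in SA and 70 in silwet, and for 57 in both. Over all tested probe sets that share was 20.7% in SA and 13% in silwet, and it was not counted for both together. Since the rule chose members on this contrast, nothing is read from the comparison. Within replicate numbers 1, 2 and 3, the median rise was 0.70, 1.30 and 1.62 in SA and 1.38, 0.83 and 1.42 in silwet. It was above 0 in all 3 numbers for 74 members in SA and 80 in silwet. All exceptions in SA lay in number 1, and the 2 exceptions in silwet in number 2. Without arrays 97 and 100 the median rise was 1.49 in SA and 1.08 in silwet, and 80 and 53 members still had a rise of at least 1.

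**Figure D2:**
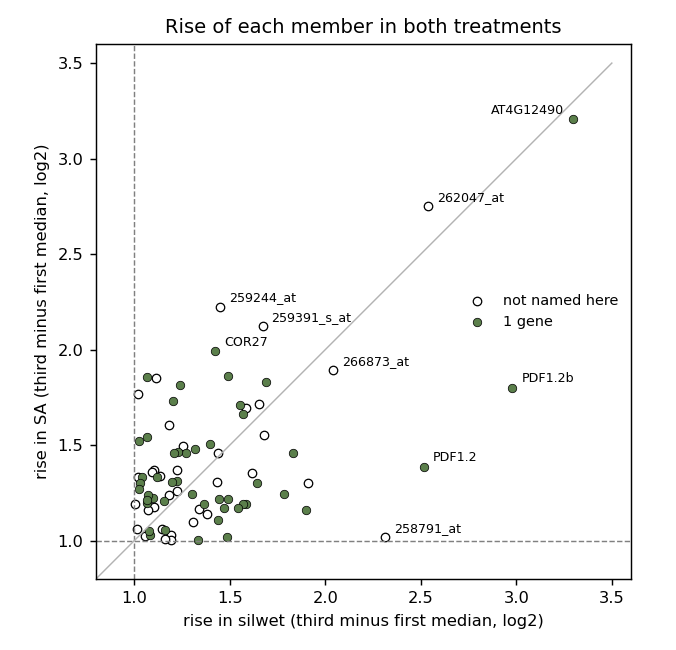
Rise of each of the 82 members between the first and the third triplet median, in SA (vertical axis) and in silwet (horizontal axis), in log2 units. Dashed lines mark the least rise of 1 that the rule asked for, the grey line marks equal rises, and filled points are members with 1 gene. AT4G12490 had the largest rise in both treatments, while PDF1.2 and PDF1.2b lie far to the silwet side.

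Defence peptides had the largest rises of named members in silwet. AT4G12490 encodes a small proline-rich protein of the lipid transfer type, in the family of AZI1, which acts in systemic immunity. Its log2 signal in SA was 6.20, 6.05 and 6.63 in the first triplet, 8.45, 8.51 and 10.04 in the second and 8.78, 9.41 and 10.54 in the third. In silwet it was 4.2, 6.60 and 6.46, then 8.98, 9.63 and 10.40, and 9.21, 9.76 and 9.97. Both later triplets lay above the first without overlap under either treatment, and the medians of the third and first differed by 3.21 in SA (9.23-fold) and 3.3 in silwet (9.82-fold).

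PDF1.2, a defensin of the jasmonate and ethylene response, was high mainly in the third triplet. It had 8.43, 6.66 and 7.76, then 8.19, 7.09 and 8.53, and then 8.54, 9.65 and 9.15 in the SA triplets. In silwet it had 8.91, 7.70 and 7.57, then 9.92, 7.23 and 8.01, and then 11.28, 10.21 and 9.94. The third triplet exceeded the first without overlap in both treatments, in SA by a narrow margin, whereas the second overlapped the first. The rise was 1.39 in SA and 2.51 in silwet. PDF1.2b, a closely related defensin, had 8.53, 6.82 and 7.14, then 7.07, 7.10 and 7.82, and then 7.96, 9.79 and 8.94 in SA. Its silwet values were 7.62, 7.29 and 7.18, then 8.84, 6.81 and 8.26, and then 11.08, 10.27 and 9.68. Here SA array 106 of the third triplet fell below SA array 100 of the first, so the SA triplets overlapped. The PDF1.2b probe set is of the x type, whose probes can bind related transcripts. Its values correlated with those of PDF1.2 at r = 0.93 over the 18 arrays, so the defensins cannot be taken as separate measurements.

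**Figure D3:**
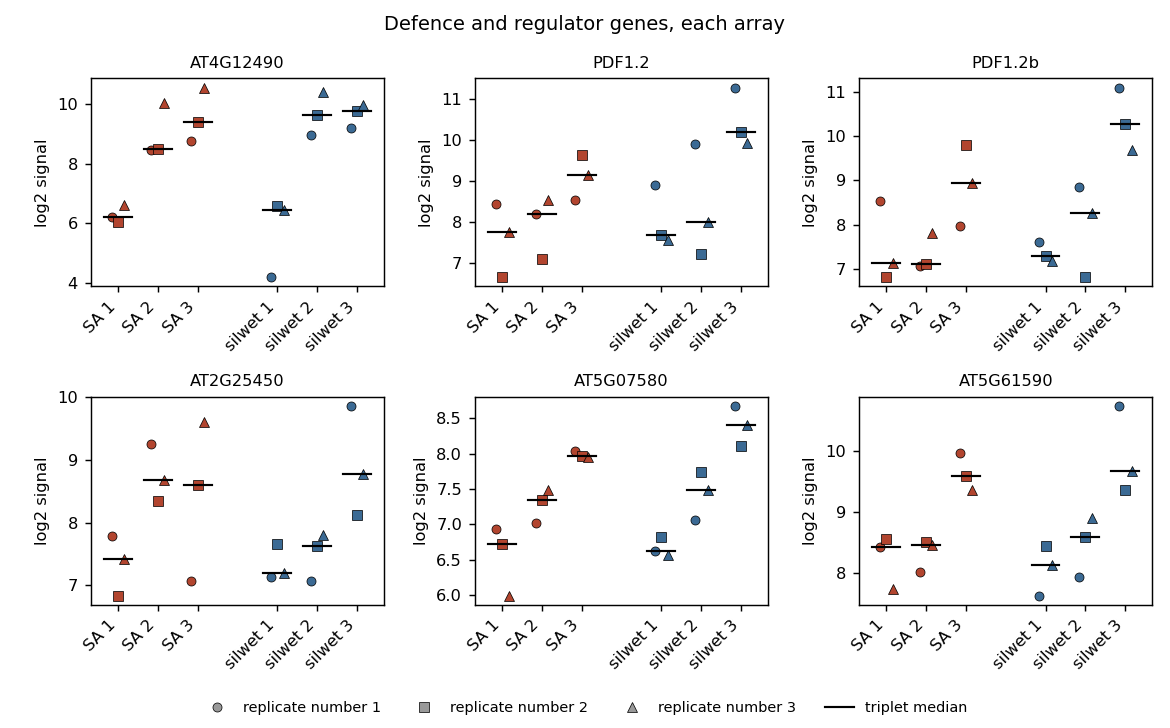
Log2 signal (vertical axes, each on its own scale) of 6 members on each array, by treatment and triplet, SA in red and silwet in blue. Symbols give the replicate number and bars the triplet medians. AT4G12490 was already high at the second triplet, and AT5G61590 stayed near its first level until the third.

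AT2G25450, which hydroxylates an alkenyl glucosinolate, the class of sulfur-containing defence compounds of this plant family, reached its level at different triplets in the treatments. Its values were 7.79, 6.84 and 7.42, then 9.25, 8.35 and 8.69, and then 7.07, 8.61 and 9.60 in SA. In silwet they were 7.13, 7.66 and 7.20, then 7.07, 7.63 and 7.80, and then 9.86, 8.12 and 8.78. In SA the second triplet lay above the first without overlap and the third overlapped both, with array 106 low. In silwet the second triplet overlapped the first and the third lay above both.

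Several members are regulators of transcription. AT5G61590 is DEWAX, an ethylene response factor that represses wax synthesis genes. It had 8.42, 8.56 and 7.72, then 8.0, 8.51 and 8.46, and then 9.96, 9.59 and 9.35 in SA. In silwet it had 7.62, 8.43 and 8.13, then 7.93, 8.58 and 8.91, and then 10.73, 9.36 and 9.68. The third triplet stood above both others under each treatment, with a rise of 1.17 in SA and 1.55 in silwet. AT5G07580, a relative in the same factor family, climbed in even steps. Its triplet medians were 6.72, 7.34 and 7.96 in SA and 6.62, 7.48 and 8.41 in silwet, with no overlap between the third and either earlier triplet. Of the other regulators, AT1G76110, with a high mobility group box, had medians of 5.95, 7.0 and 7.14 in SA and 5.89, 7.0 and 7.25 in silwet. AT4G17810, a zinc finger protein, had 5.17, 6.46 and 6.50 in SA and 5.56, 6.25 and 6.60 in silwet. At the second triplet AT1G76110 had reached 87.8% of its rise in SA and 81.6% in silwet, and AT4G17810 96.8% and 66.3%.

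Among the members picked for their known role after their values were seen were several enzymes and an actin-binding protein. AT3G07010, a pectate lyase, had 6.39, 6.27 and 5.59, then 7.57, 8.11 and 7.52, and then 7.28, 8.02 and 7.57 in SA. In silwet it had 6.17, 6.70 and 6.06, then 6.75, 7.61 and 7.68, and then 7.50, 7.87 and 7.81. The third median differed from the second by no more than 0.20 in either treatment, less than the spread of the second-triplet arrays. AT4G18970, a GDSL-type lipase, was likewise level from the second triplet on. Its values were 4.88, 4.61 and 4.65, then 6.11, 6.43 and 6.63, and then 5.82, 6.46 and 6.78 in SA, and 4.33, 5.11 and 5.0, then 5.93, 6.35 and 6.82, and then 5.46, 6.24 and 6.44 in silwet. AT4G23820, of the pectin lyase-like family, had medians of 7.76, 8.59 and 9.05 in SA and 7.87, 8.67 and 8.90 in silwet. CKS, which activates the sugar Kdo for the pectin rhamnogalacturonan II, had 5.32, 6.36 and 6.54 in SA and 5.76, 6.46 and 6.83 in silwet. WLIM1, which bundles actin filaments, had a rise of 1.02 in SA and 1.48 in silwet, and the third medians were 9.61 and 10.37.

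The remaining named members span other processes. NdhL, a subunit of the chloroplast NADH dehydrogenase-like complex, had 9.15, 8.20 and 8.10, then 9.19, 9.07 and 8.95, and then 9.44, 9.28 and 9.54 in SA. In silwet it had 8.66, 8.62 and 8.45, then 9.13, 9.33 and 9.36, and then 10.17, 9.21 and 9.68. The third triplet lay above the first without overlap under both treatments, and its profile was among the closest to the mean of the set, with r = 0.96. AT5G57170, of the macrophage migration inhibitory factor family, had medians of 5.65, 7.60 and 7.51 in SA and 6.33, 7.28 and 7.40 in silwet, so the rise of 1.86 in SA and 1.06 in silwet was complete or nearly so at the second triplet. AT2G29170, a short-chain dehydrogenase, had a rise of 1.46 in SA and 1.83 in silwet. AT4G31310, of the AIG2-like family, had a rise of 1.05 in SA and 1.08 in silwet. AT5G62720, a membrane protein of the HPP family, had medians of 8.46, 9.25 and 9.92 in SA and 8.57, 9.56 and 9.80 in silwet. AT5G44680, of a DNA glycosylase family, had 6.84, 8.0 and 8.03 in SA and 6.85, 7.60 and 8.42 in silwet. Among the named members with the largest rises but no role given here, AT5G50450 had 6.30, 7.49 and 8.16 in SA and 6.74, 7.44 and 8.23 in silwet. AT1G49975 had 5.63, 7.40 and 7.46 in SA and 6.07, 7.11 and 7.76 in silwet, and AT5G56100 had 5.16, 6.33 and 6.89 in SA and 5.75, 6.06 and 6.95 in silwet. For AT5G50450, AT1G49975 and AT5G56100 every third-triplet array lay above every first-triplet array under both treatments. The other named members among the 15 largest rises of either treatment had rises of 1.71 in SA and 1.55 in silwet for AT3G27210, 1.66 and 1.57 for AT5G11070, 1.54 and 1.07 for AT5G53880, 1.52 and 1.02 for AT2G25200, 1.51 and 1.40 for AT5G66490, 1.48 and 1.32 for AT1G03820, and 1.22 and 1.49 for AT2G24290. The rise in SA exceeded that in silwet for all of these but AT2G24290. This follows in part from the choice, since all but AT2G24290 were listed among the largest rises in SA. Over all members the rise of the medians was larger in SA for 47 and in silwet for 35. With means in place of medians it was larger in SA for 39 members and smaller for 43.

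The 35 probe sets that are not named here had rises of similar size, with a median of 1.33 in SA (1.0 to 2.75) and 1.22 in silwet (1.0 to 2.54). The largest change was that of 262047_at, whose values in SA were 3.29, 3.74 and 3.6, then 7.09, 6.16 and 6.49, and then 4.04, 6.35 and 6.56. In silwet they were 3.62, 5.16 and 3.58, then 3.82, 4.76 and 4.82, and then 7.56, 5.54 and 6.15. It was high from the second triplet in SA, apart from array 106, and high only in the third in silwet, where the second triplet overlapped the first. The probe set 266873_at followed the mean of the set most closely, with r = 0.97. It had 5.77, 5.46 and 4.66, then 6.96, 7.11 and 6.79, and then 7.35, 7.63 and 7.24 in SA, and 5.77, 5.88 and 5.71, then 6.23, 6.94 and 6.93, and then 8.06, 7.18 and 7.81 in silwet. No 2 triplets of one treatment overlapped for this probe set.

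Members differed in how much of the rise was reached at the second triplet. The share of the rise already reached at the second triplet had a median of 78.2% in SA and 48.9% in silwet, and it was larger in SA for 56 of 82 members. Without arrays 97 and 100 the medians were 80.3% and 64.0%. Among all tested probe sets the median change from the first to the second triplet was 0.15 in SA and 0.10 in silwet. From the second to the third it was -0.0007 and -0.06, so the larger share in SA is not read as particular to the members. Over 66.7% of the rise was reached by the second triplet in both treatments in 20 members, among them AT4G12490, AT3G07010, AT4G18970, AT1G76110, AT5G57170, AT3G62630, AT4G14020 and NdhL. Under 33.3% was reached in both treatments in 7 members, namely PDF1.2, PDF1.2b, AT5G61590, AT3G06070, AT4G05070, 264482_at and 248606_at. For AT4G05070 the medians were 6.98, 6.99 and 8.15 in SA and 6.74, 6.55 and 8.21 in silwet, and for AT3G06070 6.45, 6.34 and 7.62 in SA and 6.29, 6.17 and 8.19 in silwet. These thresholds were set after the values were seen, and the shares carry no test because the rule used all 3 medians. Across the 82 members the shares in SA and silwet correlated at r = 0.39, a description over members that share arrays.

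**Figure D4:**
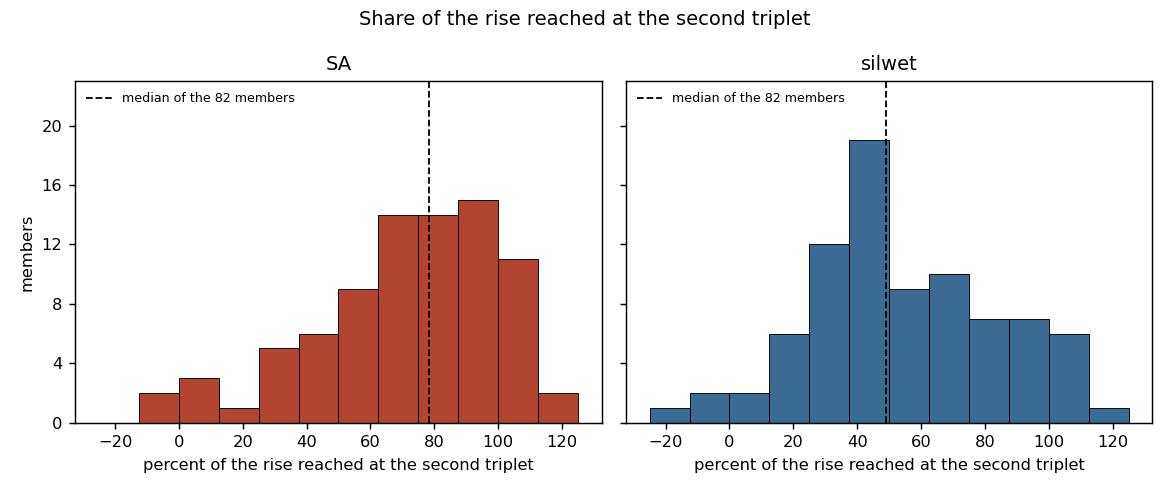
Histograms of the share of each member's rise reached at the second triplet (horizontal axis, percent) for SA on the left and silwet on the right, with the number of members on the vertical axis. The dashed lines are the medians, 78.2% in SA and 48.9% in silwet, and values below 0 or above 100 are members whose second median lay just outside the first and the third.

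The replicate number was not used by the rule and could be tested, though the rule chose members on the same arrays. It also asked for a least signal that was not asked of all tested probe sets. The share of called members is therefore not read against the share of all tested probe sets. In a limma F-test beside the 6 treatment and triplet means, 17.5% of all tested probe sets differed between replicate numbers at an adjusted p under 0.05, and 24 of the 82 members did (29.3%). Of these 24, 17 were highest in number 1, 4 in number 2 and 3 in number 3. The split was not counted over all called probe sets, so it is not read as particular to the members. SA array 100 and silwet array 97, on which the members were shifted upwards, are both number 1. Without them 28 members and 4209 of all tested probe sets were called, and the part of these arrays in the split was not tested. COR27, a cold-regulated gene that acts in the clock and in light responses, was 2.02 lower in number 3 than in number 1 and 0.92 lower in number 2 than in number 1 (limma adjusted p = 0.00913). Its SA values were 8.68, 6.73 and 5.03, then 8.64, 8.41 and 6.14, and then 8.98, 8.62 and 8.72. In silwet they were 8.62, 7.33 and 6.52, then 8.17, 8.03 and 5.67, and then 9.86, 8.35 and 8.75. Number 1 was near its final level throughout in SA, number 2 gained at the second triplet, and number 3 was low until the third. The steady medians of COR27 thus hid values that differed between the 3 numbers, with 1 array per number and triplet in each treatment. The F-test reads a shift between numbers common to all triplets, and different courses of the numbers were not tested. The probe set 267364_at followed it at r = 0.96 over the 18 arrays, with an adjusted p of 0.0055 between numbers in limma.

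AT4G12490 ran the other way and was 1.37 higher in number 3 than in number 1 (limma adjusted p = 0.011). The smallest adjusted p between numbers was 0.00139 in limma, for AT4G16710, a glycosyltransferase, which was 1.04 lower in number 3 and 0.84 lower in number 2 than in number 1. AT4G18970 and AT4G23820 were lowest in number 1, and AT3G62630 lowest in number 3.

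**Figure D5:**
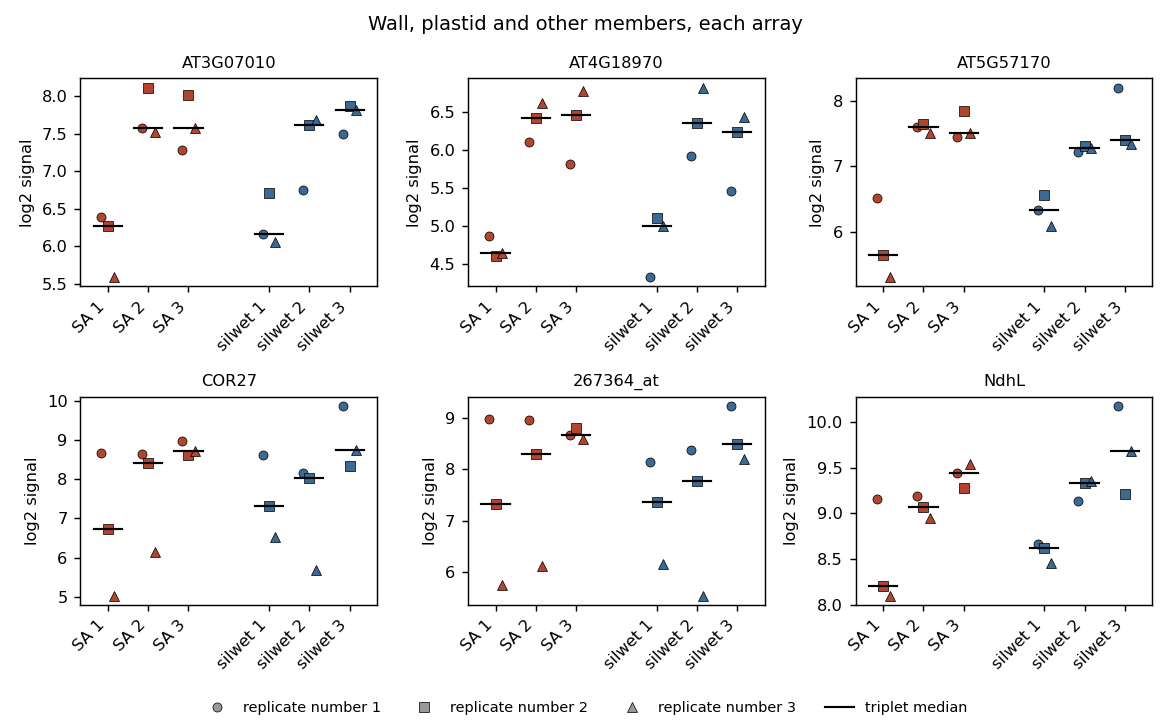
Log2 signal (vertical axes, each on its own scale) of 6 further members on each array, by treatment and triplet, SA in red and silwet in blue, with the replicate number as the symbol and triplet medians as bars. AT3G07010, AT4G18970 and AT5G57170 were level from the second triplet on, and in COR27 and 267364_at replicate number 3 stayed low until the third.

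The comparison of SA with silwet asked whether the hormone changed the level that these genes reached. The fit compared the treatments within the second and within the third triplet over all tested probe sets. The rule limited the gap between treatments only in the first triplet, but it used the medians of the later triplets too. The fit did not pair arrays by replicate number. With the number as a block, 0 probe sets passed limma in either triplet. In the third triplet the rule used the medians of both treatments, so the members' differences there are a description and are not read against all probe sets. The difference of means, SA minus silwet, had a median of -0.25 over the 82 members, and 60 members were lower and 22 higher in SA. Over all tested probe sets the median was 0.04, and a rise of at least 1 was met by 9.79% in SA and 2.98% in silwet. No member passed limma at an adjusted p of 0.05, and neither did any of the 15922 tested probe sets (0% called). At an unadjusted p under 0.05 there were 4 members, all lower in SA, and 6.98% of all tested probe sets. Without silwet array 97 the median difference of the members was -0.04, with 44 members lower and 38 higher in SA. With weights estimated per array, 18 members and 5380 of all tested probe sets passed limma, among them AT4G31310 and 258791_at, though that estimate stopped before it converged.

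The 4 members were PDF1.2, PDF1.2b, AT4G31310 and 258791_at. PDF1.2 differed by -1.36 (SE 0.62, 95% interval -2.67 to -0.05) and PDF1.2b by -1.45 (SE 0.54, -2.60 to -0.30), with 3 of 3 SA arrays below the lowest silwet array for PDF1.2 and 2 of 3 for PDF1.2b. Without silwet array 97 the differences were -0.96 for PDF1.2 and -1.08 for PDF1.2b. AT4G31310 differed by -0.56 (SE 0.26) and 258791_at by -0.99 (SE 0.35). The limma adjusted p of each was 0.615. For AT4G12490 the difference was -0.07, with an interval of -1.32 to 1.18 that leaves room for a doubling either way. Its sign turned with the arrays used.

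In the second triplet the median difference of the members was 0.04, with 50 higher and 32 lower in SA. Over all tested probe sets the median was -0.03, and 55.4% were lower in SA. The rule used the second medians too, so the members are not read against all probe sets here either. Again no probe set passed limma (0% called), and 4 members had an unadjusted p under 0.05, against 2.3% of all tested probe sets. With array weights 19 probe sets passed, none of them a member. The largest was 262047_at, with 7.09, 6.16 and 6.49 in SA and 3.82, 4.76 and 4.82 in silwet, a difference of 2.12 (SE 0.62) without overlap. AT2G25450 was 1.26 higher in SA (SE 0.51) and AT1G21920 0.54 higher (SE 0.25), while AT2G29170 differed by -0.94 (SE 0.29). Each had a limma adjusted p of 1.0.

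The rise itself was also set against the other treatment, as the third minus first mean in SA less the same in silwet. Of all tested probe sets, 3.05% passed limma at an adjusted p of 0.05, 1.36% with a larger rise in SA and 1.69% with a smaller one, and 0 of the 82 members did. At an unadjusted p under 0.05 there were 4 members and 21.9% of all tested probe sets. The rule kept only probe sets with a rise under both treatments, so the low count follows from it in part and is not read further. The lowest limma adjusted p among members was 0.0825, for 258791_at, with a difference of -1.60 (SE 0.50). Its values were 8.63, 8.94 and 8.71, then 9.14, 9.12 and 10.02, and then 8.62, 9.73 and 10.17 in SA, and 7.77, 8.45 and 8.24, then 9.77, 8.86 and 9.66, and then 10.56, 10.18 and 10.76 in silwet. The third triplet overlapped the first in SA, where array 106 was low, and the 3 triplets stood clear of each other in silwet. With the replicate number as a block, 2 members passed, 258791_at (limma adjusted p = 0.0327) and 260592_at, with a difference of 0.83 (adjusted p = 0.0273), and 1850 of all probe sets did, against 485 without the block. The first medians, on which the rule set a limit, were lower in SA for 63 of 82 members, with a median difference of -0.25.

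The pathway lists held few members. Of 182 loci in 19 lists, 40 had a named probe set, 38 were tested and 1, PDF1.2, was a member. Among the 5 tested jasmonate genes 2 had a rise of at least 1 in both treatments, PDF1.2 and the thionin THI2.1. THI2.1 had 1.1 in SA and 1.52 in silwet, and the third medians were 3.96 and 5.88, under the limit of 6. ORA47, a transcription factor, had 1.0 and 0.50, and OPCL1, an enzyme of jasmonate synthesis, had -0.36 and -1.08. JMT, which methylates jasmonic acid, went the other way, with -3.32 in SA and -3.92 in silwet. SAG29, a sugar transporter of the senescence list, had a rise of 3.28 in SA and 5.53 in silwet, more than any member, from first medians of 2.47 and 0.89. The other 4 tested genes of that list had -3.20 to 0.67 in SA and -1.59 to 0.32 in silwet. Of the 6 tested nuclear photosynthesis genes none had a rise of 1 in either treatment, and their median was -0.02 in SA and -0.12 in silwet.

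Outside the set, the named genes most like its mean profile over the 18 arrays were AT5G54540 with r = 0.97, AT4G16410 and AT1G68660 with 0.95, and STOMAGEN and AT1G22700 with 0.94. Members themselves ranged from 0.61 to 0.97 with a median of 0.86, and 275 tested probe sets outside the set lay above that median. STOMAGEN, a secreted peptide that promotes stomata, had medians of 5.34, 7.29 and 7.27 in SA and 6.27, 6.95 and 7.86 in silwet. Its first medians differed by -0.92 between SA and silwet, beyond the limit of the rule. Among the 47 members with a locus in the reference table, 1 pair lay within 10 genes of each other, AT4G14020 and AT4G14100. The other 35 members could not be placed.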

How the data were processed

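The authors deposited one table of signal intensity on a linear scale. The submitters' processing notes name MAS5 without a version. The number of arrays limits the precision, and dim probe sets scatter most. Values were used without rescaling and taken as log2. Of 22810 probe sets, 64 controls were left out. Tests also left out the dimmest 30%, by mean log2 signal, which gave 15922. All 82 members passed this filter. The platform annotation gave the gene names, and their symbols were brought up to date with the RefSeq TAIR10.1 table by gene identifier.

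Tests used limma 3.58.1 in R 4.3.3 on means of 6 treatment and triplet groups, with a mean-variance trend, and p-values were adjusted by Benjamini-Hochberg across the 15922 probe sets, at a threshold of 0.05. The code was tested on simulated data. Replicate numbers were checked by correlating deviations from the triplet means. Same-numbered arrays of both treatments correlated at 0.22 to 0.48 in every triplet and differently numbered ones at -0.38 to 0.11. Deviations cancel within a triplet, so the lower values of differently numbered arrays follow in part from the positive ones and are no separate support. On the same-numbered values, and not on the labels, the numbers were taken to pair the arrays. The fit reported for SA against silwet leaves this pairing out, in its standard errors and p-values too. A fit with the replicate number as a block is given beside it as an alternative.

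The members and lists were chosen with earlier results of these data known. Named genes were the 15 largest rises per treatment, list members, called members with the smallest p in each contrast, those at the edge of the rule and the 5 most like the mean profile, and no family by symbol had 3 members. Other members were named for their known role after their values were seen. The planned promoter motif search was not run. Alternatives were another normalization, filters, floors, weights, rule limits and arrays left out.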

Additional observations from a re-analysis of the deposited data

How the results depend on the processing

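The number of members depended on the limits of the rule. It was 59 when the second median could not lie outside the first and the third at all, 52 with first medians within 0.4, and 11 with a rise of at least 1.5. It was 44 to 113 when single arrays or replicate numbers were left out, the lowest without replicate number 3. With quantile normalization 82 probe sets met the rule, 68 of them shared with the 82 reported, and with means in place of medians 84 did, 47 of them shared. Without silwet array 97 and SA array 100, an alternative chosen after seeing the data, 58 met it and 39 were shared. Without replicate numbers 1, 2 and 3 the rule was met by 80, 113 and 44 probe sets, of which 43, 41 and 23 were shared. Both the count and the choice of members thus depended on the limits and on the arrays used.

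In the third triplet, SA against silwet called 0 probe sets by limma in the fit reported, 0 to 1 with arrays or replicate numbers left out, and 5380 with array weights, of which 18 were members. In the second triplet array weights called 19, and 0 to 3 were called with arrays or replicate numbers left out. For the difference of the rise, 485 were called, 1850 with the replicate block and 4530 with array weights, with 2 and 9 members among them. Leaving out arrays or replicate numbers gave 0 to 1859 probe sets and 0 to 1 members, the member being 258791_at, and leaving out arrays 97 and 100 gave 1 member, AT5G57170. The 1859 came without silwet array 98, and 0 without replicate numbers 1 or 3, where 2 arrays stay in each triplet. It was 99 to 233 without any one of silwet arrays 91, 92, 97 and 99 and SA arrays 106 and 107, also lower by over 1.5 times without silwet array 95, and 740 without SA array 101. The estimate of array weights stopped before it converged. Between replicate numbers 2792 were called, 4928 with array weights, 4209 without arrays 97 and 100, and 1395 to 3582 with single arrays left out, with 14 to 31 members. The count was 1395 to 1808 without any one of silwet arrays 93, 96, 98 and 99 and SA arrays 101, 103, 104, 105 and 108. The cause of these moves was not tested. Among the members, the replicate block changed no call beyond the 2 in the difference of the rise. The third-triplet difference of AT4G12490 turned its sign, being -0.55 to 0.33 when arrays or replicate numbers were left out. It was above 0 without SA arrays 106 (0.33) or 107 (0.02), silwet array 99 (0.10), or replicate numbers 1 (0.11) or 2 (0.07). Signs were followed for 13 contrast values only, that of AT4G12490 and those of members with an unadjusted p under 0.05 in limma. None of the others turned. The remaining members were not followed singly, and without silwet array 97 the number lower in SA in the third triplet went from 60 to 44. No rise of a member turned its sign under the alternatives in which it was recomputed. These left out replicate numbers, and arrays 97 and 100 together, but not each single array. Arrays of 3 per triplet limit the precision, most for dim probe sets.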
